A study of Homo sapiens with 8 samples.

Results

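The long arm of chromosome 5 carries, at bands 5q23 to 5q31, a segment in which most genes gave more RNA in FOXA1 knockdown cells than in control cells of the breast cancer line SKBR3. The 58 protein-coding genes described here were selected on the measured fold changes of knockdown against control, which run high there, and they are 58 of the 30434 genes in the count table. By map order they start with ALDH7A1 (chromosome 5, 126531200) and end with HSPA9 (start 138553756; GRCh38, GENCODE 29), a span of 12.02 Mb between gene starts. The comparison of knockdown with control chose the segment, so the differences between groups are given for the members as a description, without a test.

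SKBR3 is an established line from a human breast cancer in which ERBB2 (HER2) is amplified. Control cells, with a genotype labelled WT, and cells with a stable FOXA1 knockdown were grown in the same serum-containing medium, and 4 RNA sequencing libraries of each were counted. The knockdown came from commercial lentiviruses with several short hairpin RNAs against FOXA1, a pioneer transcription factor of luminal breast cells. The labels do not say whether the control cells carried a control vector, whether the knockdown line was pooled or cloned, or whether the replicates came from separate cultures, so the spread between them may be technical. FOXA1 itself averaged 191.7 CPM ± 1.65 in the control libraries and 3.96 CPM ± 0.340 in the knockdown libraries (SD over 4 libraries in each group; CPM is the count scaled to a common library total). On the log2 scale that is -5.60, and edgeR's quasi-likelihood test gave it an adjusted p of 3.19e-30.

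Library totals ran from 19087878 to 23786684 counts, and the floor of 3 counts for a gene not detected was worth 0.123 to 0.153 CPM, depending on the library. The epithelial markers KRT8, KRT18, KRT19, KRT7, EPCAM and ERBB2 summed to between 18290 and 20372 CPM in control and between 11485 and 12376 CPM in knockdown libraries. They moved in both directions: by edgeR ERBB2, KRT19 and KRT7 fell, with log2 values of -2.45, -1.87 and -1.79, and KRT8, KRT18 and EPCAM rose, with values of 0.31, 0.58 and 0.33. Of 11 markers of immune, endothelial, fibroblast and basal cells, 10 were in the table, and they summed to between 16.6 and 18.9 CPM in control and between 9.63 and 10.8 CPM in knockdown. Of these 10, PTPRC, COL1A2, DCN, PECAM1 and KRT14 had at most 7 counts in any library, while COL1A1, CD68, VWF, PDGFRB and KRT5 reached 134, 131, 130, 81 and 40 counts. By edgeR CD68, VWF and COL1A1 fell, with log2 values of -3.05, -2.62 and -0.31, and PDGFRB rose by 2.78, whereas KRT5 did not pass the test (0.19, adjusted p 0.451). The part of these shifts in the members' values was not tested. Chi-square per degree of freedom between libraries of a group was taken over the 9335 genes with at least 10 CPM in control. Among the controls, pairs with replicate 3 had values of 6.77 to 9.11, against 2.47 to 2.76 for the other pairs. Pairs of knockdown libraries had values of 3.68 to 5.52.

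The genes of this segment have no single function in common. Human 5q31 is known in blood disease for the deletions of myelodysplastic syndrome, and in immunity for the interleukin genes that lie beside RAD50 and IRF1. It also holds housekeeping genes of protein folding (HSPA4, HSPA9), ubiquitin transfer (SKP1, UBE2B), cell division (CDC23, CDC25C) and RNA handling (HNRNPA0, DDX46), beside developmental regulators such as PITX1. In bulk RNA a change in RNA per cell and a change in the make-up of the cell population cannot be told apart, and DNA copy number was not analysed here.

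Before the values, 4 stretches of promoter sequence show what stands before a start site of 4 of the members. They come from a set of RefSeq promoter windows on GRCh38.p14. The set used here held 57 of the 58 members (all but UBE2B), in 82 windows of 300 bases. JADE2 had the largest fitted rise, PITX1 the largest fall, LMNB1 was one of the abundant genes that were higher, and KLHL3 carries the letters of a forkhead core. Each is written in the direction of transcription, with CG in capitals, or for KLHL3 the forkhead letters.
JADE2, chr5:134524205-134524304, plus strand: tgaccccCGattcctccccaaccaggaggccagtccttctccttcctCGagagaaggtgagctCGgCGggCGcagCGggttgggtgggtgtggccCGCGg
PITX1, chr5:135034299-135034398, minus strand: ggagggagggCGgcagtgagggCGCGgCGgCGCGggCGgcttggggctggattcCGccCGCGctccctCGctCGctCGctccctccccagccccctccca
LMNB1, chr5:126776523-126776622, plus strand: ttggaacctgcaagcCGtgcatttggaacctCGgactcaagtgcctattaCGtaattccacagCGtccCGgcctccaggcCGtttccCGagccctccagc
KLHL3, chr5:137721446-137721545, minus strand: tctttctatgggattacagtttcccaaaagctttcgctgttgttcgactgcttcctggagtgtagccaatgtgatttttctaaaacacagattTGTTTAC

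The PITX1 stretch holds 13 CG dinucleotides, JADE2 8 and LMNB1 7, whereas the KLHL3 stretch, before one of its later start sites, holds 2. PITX1 had 1 window, but JADE2 had 6, KLHL3 3 and LMNB1 2, so 1 stretch does not stand for these genes. Stretches before the other start sites of JADE2 held between 2 and 12, and the 2 whole windows of LMNB1 held 16 and 34. Members' windows had a median GC content of 68.7% and a median of 27 CG dinucleotides, against 63.7% and 23 in the windows of all protein-coding genes of the table and 58.7% and 14 in all 35116 windows. The forkhead core was searched as TGTTTAC or TATTTAC on either strand. It occurred in 2 of the 82 windows (2.44%), those of KLHL3 and TCF7, against 4.38% of the windows of protein-coding genes and 5.97% of all windows. A match is a description of these letters and not a binding site, and its absence from a window says nothing about FOXA1.

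Of the 58 members, 53 passed the filter on low counts. In edgeR's fit over all 16430 tested genes, 49 of them were higher and 2 lower at an adjusted p under 0.05, where 77.1% of all tested genes passed in either direction, 39.4% higher and 37.7% lower. The same 49 lay above every control library in all 4 knockdown libraries, where 36.9% of tested genes did so, and 2 lay below, where 35% did. Because this contrast chose the segment, nothing is read from those counts. The median log2 fold change of the 53 was 1.08, or 2.11-fold, against 0.02 over all tested genes.

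**Figure D1:**
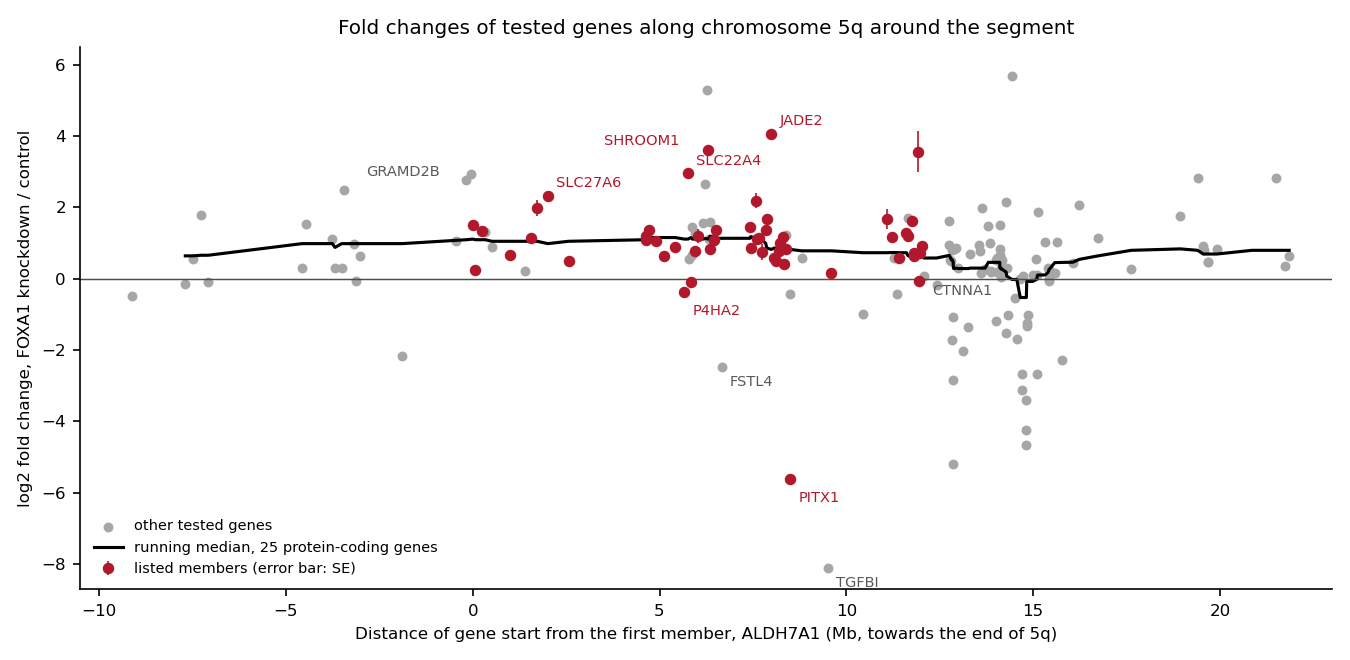
Log2 fold change of tested genes (y axis) against the distance of the gene start from ALDH7A1 (x axis, Mb), with members in red (error bars are SE), other genes within 10 Mb of the segment in grey, and the running median of 25 protein-coding genes in black. Most members lie between 0.5 and 1.5, while PITX1 is at -5.61 and the unlisted TGFBI, about 1 Mb further on, is at -8.11. The unlisted ENSG00000250284, at 6.73, and DPYSL3, at 8.52, lie beyond the top of the y axis and are not shown.

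The members were selected on high values in this contrast, so how closely their values lie together is only described. The 22 tested genes of the same interval that are not on the list were more spread, with a width of 1.25 for their middle 50% on the log2 scale. The middle 50% of the members lay between 0.66 and 1.37, a width of 0.71, against a width of 1.03 for all tested genes. Between 0.5 and 1.5 fell 35 of the 53 (66%), against 14.9% of all tested genes. Among the 40 members with at least 10 CPM in control, 32 fell in that range and the median log2 fold change was 0.89. Of the 18 members below 10 CPM in control, 13 passed the filter on low counts, and REEP2, FBN2 and KLHL3 did so only through their knockdown counts, so no median is given for them.

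Summed over the 58 members, the level was 3170, 3213, 3077 and 3166 CPM in control replicates 1 to 4 and 6093, 6041, 6010 and 6064 CPM in knockdown replicates 1 to 4. The 4 knockdown libraries lay close together and far above the controls, 1.92-fold higher on the means. Without HSPA9, the most abundant member, the ratio was 1.93. As a share of all counts the members went from 0.306% ± 0.00658 to 0.622% ± 0.00425 (SD, n = 4 each). Taken library by library, the median member stood 1.13, 1.10, 1.07 and 0.96 above the control mean on the log2 scale in knockdown replicates 1 to 4, while control libraries stood between -0.04 and 0.03. Within groups, the SD of log2 CPM had a median of 0.0607 in control and 0.0469 in knockdown over the 40 members with at least 10 CPM, and 0.0660 and 0.0606 over the 9335 genes at that level.

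**Figure D2:**
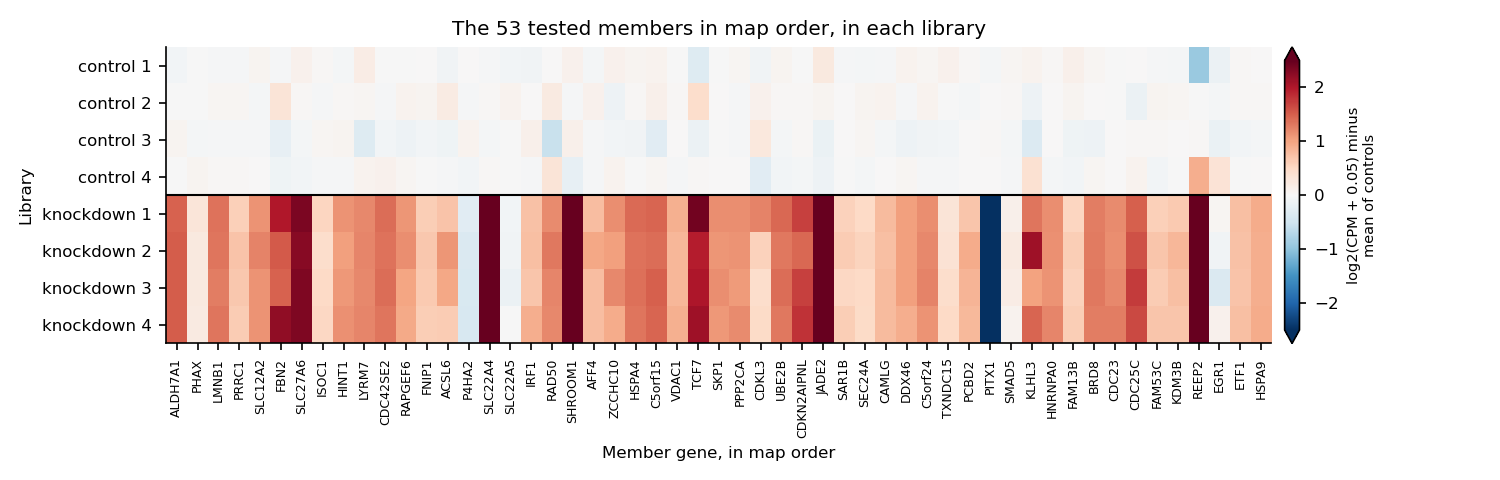
Log2(CPM + 0.05) of the 53 tested members (x axis, map order) in each of the 8 libraries (y axis), minus the mean of the controls, with colours that saturate beyond the ends of the scale. The 4 knockdown rows are alike, red for 49 genes, and the PITX1 column is blue in all 4.

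HSPA9 and VDAC1, both of mitochondria, had the highest levels, followed in CPM by ETF1 and HSPA4. HSPA9, the mitochondrial Hsp70 that draws proteins into the matrix, had 822, 833, 784 and 827 CPM in control and 1559, 1531, 1531 and 1550 CPM in knockdown, a log2 fold change of 0.92 (SE 0.0209). VDAC1, the main channel of the mitochondrial outer membrane, had 255, 264, 260 and 252 CPM in control and 479, 460, 461 and 475 CPM in knockdown (log2 fold change 0.86, SE 0.0216). Neither gene's groups overlapped. Per kilobase of merged exons these were the most abundant members in both groups, HSPA9 at 98.9 CPM per kb in control and 186.9 in knockdown, and VDAC1 at 81.5 and 148.2. HINT1, a small nucleotide hydrolase, came next at 59.0 and 126.1 CPM per kb. Its levels were 110, 116, 119 and 112 CPM in control and 250, 232, 243 and 252 CPM in knockdown. HSPA4, an Hsp110-type nucleotide exchange factor, went from 148, 145, 134 and 140.5 CPM to 380, 362, 366 and 358 CPM, the largest step of these abundant genes at 1.37 (SE 0.0356). ETF1, the release factor that reads stop codons, had 213, 211, 198 and 207 CPM in control and 350, 344, 342 and 348 CPM in knockdown.

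All 9 members grouped as metabolic or mitochondrial were above the controls in every knockdown library, where 36.9% of all tested genes were. The members were selected on high values, so nothing is read from this count or from the later counts by group. Log2 fold changes of the 9 ran from 0.51 to 2.33. The lowest of these was ISOC1, from 50.02 CPM ± 1.55 to 71.1 CPM ± 2.12. SLC27A6, a fatty acid transport protein, was the highest, with 8.84, 8.40, 7.93 and 7.80 CPM in control and 42.5, 40.2, 42.0 and 41.5 CPM in knockdown, a 5.04-fold step between groups that lay far apart (SE of the log2 value 0.0444). ALDH7A1, an aldehyde dehydrogenase of lysine breakdown, went from 47.3 CPM ± 1.91 to 134.1 CPM ± 2.09, and the complex III assembly factor LYRM7 from 18.3 CPM ± 2.71 to 42.2 CPM ± 0.266 (SD, n = 4 each). PCBD2, a pterin dehydratase, went from 7.39 to 13.1 CPM, and ACSL6, an acyl-CoA synthetase, was scarce, at 0.975 and 1.80 CPM.

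In the ubiquitin and cell cycle group, 5 of 5 members were higher in edgeR's fit, where 39.4% of all tested genes were. Their log2 fold changes lay between 1.13 and 1.68, and the count is a description of selected genes. SKP1, the adaptor that links F-box proteins to cullin 1, had 104, 105, 103 and 104 CPM in control and 233, 222, 234 and 220 CPM in knockdown. The controls lay close together and well below all knockdown libraries. CDC23, a subunit of the anaphase-promoting complex, went from 48.2 CPM ± 0.557 to 111.6 CPM ± 4.01, UBE2B, a ubiquitin-conjugating enzyme of DNA damage tolerance, from 20.2 CPM ± 0.886 to 52.1 CPM ± 2.08, and CDC25C, the phosphatase that activates CDK1 at mitotic entry, from 7.76 CPM ± 0.522 to 23.97 CPM ± 1.67 (SD, n = 4 each). KLHL3, a cullin 3 adaptor, was scarce, with between 4 and 8 counts in control and between 11 and 31 in knockdown. It passed the filter only through its knockdown counts.

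The nuclear lamina and RNA group gave 5 of 5 higher in edgeR's fit, where 39.4% of all tested genes were, a count of genes selected on high values. LMNB1, a B-type lamin, had 89.3, 94.1, 89.8 and 92.8 CPM in control and 234, 231, 222 and 231 CPM in knockdown, a log2 fold change of 1.33 (SE 0.0247). HNRNPA0, an RNA-binding protein encoded by an intronless gene, had 118, 115, 117 and 112 CPM in control and 259, 255, 252 and 269 CPM in knockdown, 1.16 on the log2 scale. DDX46, a helicase of the spliceosome, went from 87.1, 80.0, 74.6 and 84.9 CPM to 166, 167, 167 and 153 CPM, and its neighbour C5orf24, which overlaps it on the same strand, from 33.2 CPM ± 1.83 to 75.3 CPM ± 2.32. Least changed was PHAX, the export adaptor of small nuclear RNAs, with 47.3, 46.8, 45.9 and 49.3 CPM in control and 58.5, 56.3, 55.7 and 54.9 CPM in knockdown, only 1.19-fold apart although the groups did not overlap. ZCCHC10 had a log2 fold change of 1.08 (SE 0.0864), which is the median of the members.

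Signalling genes were higher in edgeR's fit in 6 of 6 cases, where 39.4% of all tested genes were, again a count of genes selected on high values. PPP2CA, the main catalytic subunit of protein phosphatase 2A, had 95.7, 89.8, 89.9 and 93.3 CPM in control and 205, 201, 194 and 210 CPM in knockdown (log2 fold change 1.14, SE 0.0327). CDC42SE2, which binds the GTPase CDC42, stood at 1.37, RAPGEF6, an exchange factor for RAP GTPases, at 1.05, FNIP1, a partner of folliculin, at 0.64 and the kinase gene CDKL3 at 0.76. SMAD5, a transducer of bone morphogenetic protein signals, was close to the control level, with 31.3, 30.6, 28.9 and 29.6 CPM in control and 32.6, 35.0, 34.1 and 32.0 CPM in knockdown (log2 fold change 0.15, SE 0.0384). RAD50, the ATPase of the MRE11 repair complex, had 29.7, 34.3, 20.1 and 37.0 CPM in control and 66.6, 74.1, 68.5 and 68.0 CPM in knockdown. Control replicate 3 was the low one, and without it the log2 fold change was 1.04 in place of 1.19. A read-through gene (ENSG00000283782) covers RAD50 on the same strand, so reads can be divided between them. Their sum was 39.1, 39.7, 33.4 and 42.7 CPM in control and 87.6, 87.1, 82.7 and 72.8 CPM in knockdown, 2.13-fold higher on the means.

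The secretory pathway members SAR1B, SEC24A and CAMLG were higher by less than most, at 0.59, 0.51 and 0.78 on the log2 scale. SAR1B, the GTPase that starts COPII vesicles, went from 37.9 CPM ± 0.475 to 57.0 CPM ± 1.73, SEC24A, the cargo subunit of their coat, from 30.4 CPM ± 1.27 to 43.2 CPM ± 0.889, and CAMLG, the receptor for tail-anchored proteins, from 12.8 CPM ± 0.554 to 22.1 CPM ± 0.273 (SD, n = 4 each). Their groups were clearly apart, since SAR1B reached at most 38.4 CPM in control and at least 54.6 CPM in knockdown.

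Transcription and chromatin genes spanned the whole range. JADE2, a plant homeodomain protein of histone acetyltransferase complexes, had 2.47, 2.18, 1.85 and 1.896 CPM in control and 35.9, 36.0, 33.2 and 35.9 CPM in knockdown. That is 16.8-fold, the largest fitted rise among the members. TCF7, a partner of beta-catenin, had 10, 18, 11 and 14 counts in control and 79, 59, 50 and 59 in knockdown, but it overlaps the abundant SKP1 by 2931 bp on the opposite strand and its counts are uncertain. KDM3B, a histone H3 lysine demethylase, had 97.4, 103, 101 and 99.8 CPM in control and 157, 178, 169 and 162 CPM in knockdown. AFF4, the scaffold of the super elongation complex, stood at 0.82, the acetyltransferase complex subunit BRD8 at 1.29 and the interferon-induced regulator IRF1 at 0.77 on the log2 scale.

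PITX1, a homeobox gene of hindlimb and pituitary development, went against the segment. It had 62.6, 65.2, 65.9 and 64.6 CPM in control and 1.19, 1.31, 1.22 and 1.53 CPM in knockdown, which left 2.03% of the control level (log2 fold change -5.61, SE 0.0808). The member before it on the map, PCBD2, stood at 0.82 on the log2 scale and the member after it, SMAD5, at 0.15. Between PITX1 and SMAD5 lie the unlisted PITX1-AS1 at -0.42, MACROH2A1 at 0.57 and TGFBI, which stood lower than PITX1 at -8.11, a fitted value that rests on knockdown counts at or near 0. EGR1, an immediate early gene induced by growth factors, showed no difference beyond its spread, with 8.98, 9.62, 8.83 and 12.6 CPM in control and 10.2, 9.38, 7.69 and 10.7 CPM in knockdown.

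The carnitine and cation transporter genes SLC22A4 and SLC22A5 are close relatives that lie side by side, and they differed. SLC22A4 had 0.870, 0.908, 0.855 and 0.905 CPM in control and 6.29, 7.50, 6.82 and 6.94 CPM in knockdown, 7.74-fold apart. Its counts are uncertain, since the unlisted MIR3936HG overlaps it by 32922 bp and P4HA2 by 873 bp, both on the opposite strand. SLC22A5, the carnitine carrier, had 61.7, 69.2, 64.9 and 64.6 CPM in control and 62.1, 61.3, 58.7 and 64.5 CPM in knockdown, and its groups overlapped (log2 fold change -0.08, SE 0.0442). Despite its smaller fold, SLC22A5 stayed the far more abundant of the pair in knockdown. SLC12A2, the sodium, potassium and chloride cotransporter of secretory epithelia, averaged 28.3 CPM ± 0.985 in control libraries and 63.1 CPM ± 2.68 in knockdown libraries (SD, n = 4).

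Of 7 members of the matrix, surface and cytoskeleton, 3 passed the filter. P4HA2, a subunit of the enzyme that hydroxylates collagen prolines, was lower, with 20.1, 19.6, 21.4 and 19.2 CPM in control and 16.4, 15.5, 15.3 and 15.2 CPM in knockdown (log2 fold change -0.36, SE 0.0411). SHROOM1, an actin-binding protein, had 1.47, 1.32, 1.47 and 1.16 CPM in control and 17.5, 16.9, 15.6 and 16.8 CPM in knockdown, 12.3-fold apart. FBN2, a fibrillin of elastic microfibrils, had between 5 and 8 counts in control and between 17 and 32 in knockdown; its gene body overlaps SLC27A6 on the opposite strand.

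The other 4 of that group and NME5 were below the filter. CHSY3, a chondroitin synthase, had 0 counts in every control library and 5, 9, 6 and 1 in knockdown. Its mean knockdown level was 1.71 times the control floor of 3 counts per library. Knockdown replicate 4 was itself below 3 counts, so no fold change is given. The engulfment receptor gene MEGF10 had 0 counts in control and at most 1 in knockdown, the metalloproteinase gene ADAMTS19 had 1, 3, 0 and 0 counts in control and 0 in knockdown, and PDLIM4, a LIM domain protein, had at most 2 counts in any library. NME5, of the nucleoside diphosphate kinase family, had between 4 and 8 counts in control and between 3 and 7 in knockdown. For MEGF10, ADAMTS19, PDLIM4 and NME5 no difference was detectable at this depth. REEP2, of a family that shapes the endoplasmic reticulum, passed the filter only through its knockdown counts. It had 0, 1, 1 and 3 counts in control and 14, 19, 17 and 15 in knockdown. Pooled over the libraries of each group and scaled, that is a ratio of 12.8, given as a description because this contrast chose the members. The control counts of REEP2 are at or below the floor of 3 per library. Its fitted log2 fold change of 3.56 was 4.33 without control replicate 4 and 3.18 without control replicate 1.

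The remaining members, whose functions are less known, were all higher in edgeR's fit where tested, while 39.4% of all tested genes were. PRRC1 had 76.3, 80.6, 76.7 and 79.3 CPM in control and 119, 128, 126 and 121 CPM in knockdown. CDKN2AIPNL stood at 1.68, C5orf15 at 1.44, FAM53C at 0.65, FAM13B at 0.58 and TXNDC15 at 0.41 on the log2 scale.

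**Figure D3:**
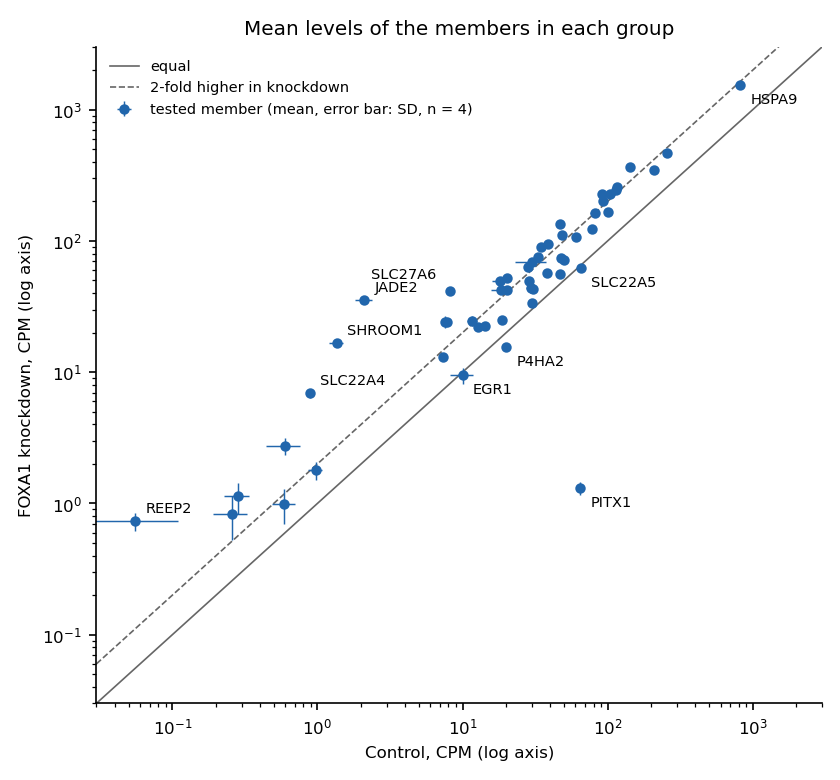
Mean CPM in control (x axis) and knockdown (y axis), both on log axes, for the 53 tested members, with SD bars (n = 4). Most members with over 10 CPM lie along the dashed line of a 2-fold rise, while JADE2, SHROOM1 and SLC22A4 lie above it and PITX1 far below the line of equality.

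Overlapping genes bear on some of these values, since the use of strand in counting is not stated in the sources used here. Of the 58 members, 35 overlap no other counted gene with a mean of 10 or more counts. Of those, 31 were tested, and 30 were higher and 0 lower in edgeR's fit, where 39.4% and 37.7% of all tested genes were. The lower members PITX1 and P4HA2, and SLC22A5, overlap such a gene and so are not among them. REEP2 and KLHL3, which passed the filter only through their knockdown counts, are. The calls come from the contrast that chose the members, and nothing is read from them.

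Other genes of the interval were not on the list. The table held 66 of them, of which 22 passed the filter, and their median log2 fold change was 1.00. With a mean of at least 50 counts required, that median was 0.64, while the members' was 1.07. In edgeR's fit 15 of the 22 were higher (68.2%) and 4 lower (18.2%) at an adjusted p under 0.05, where 39.4% and 37.7% of all tested genes were. Without overlap between the groups, 13 were higher and 2 lower (59.1% and 9.09%, where 36.9% and 35% of all tested genes were). This contrast chose the interval, so nothing is read from these counts. SOWAHA and ENSG00000250284, for example, had at most 2 counts in any control library and passed the filter only through their knockdown counts. The septin gene SEPTIN8 went from 20.1 CPM ± 0.798 to 125.6 CPM ± 4.27 and UQCRQ, a subunit of complex III, from 58.1 CPM ± 2.41 to 125.9 CPM ± 6.55 (SD, n = 4 each). Lower ones with at least 50 counts on average were TGFBI, a matrix protein, with 232, 226, 244 and 256 counts in control and 0, 1, 0 and 2 in knockdown, and PITX1-AS1, which overlaps PITX1 on the opposite strand (log2 fold change -0.42, SE 0.163). Of the interleukin cluster, IL13 and IL5 had at most 2 counts in any library, and IL3, CSF2, IL4 and IL9 were not analysed here. KIF3A, a kinesin gene within that cluster, had a log2 fold change of 1.58 (SE 0.115).

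In map order, 2 unbroken stretches of 16 tested protein-coding genes, listed or not, lay above every control library, one from ALDH7A1 to ACSL6 and one from C5orf15 to PCBD2. Over all tested genes 36.9% lay above every control library, and 40.0% of the protein-coding ones. The segment was chosen on these values, and FBN2 in the first stretch passed the filter only through its knockdown counts, so the stretches are a description. Between the 2 stretches the order was broken at P4HA2, at SLC22A5 with the read-through gene beside it, and at the unlisted FSTL4. The highest median of 25 neighbouring protein-coding genes on chromosome 5 was 1.19, from P4HA2 to JADE2, and the highest in a window without any member was 0.98, from SLIT3 to THOC3. The edge of the list towards the centromere is not an edge in the values: just outside it, GRAMD2B stood at 2.77 on the log2 scale (SE 0.0472), and the 18 tested genes within 10 Mb had a median of 0.60. The other tested genes just before ALDH7A1, ENSG00000248752 and ENSG00000279118, stood at 1.07 and 2.94, but neither value is read for the edge. The groups of ENSG00000248752 overlapped (SE 0.463). ENSG00000279118 overlaps GRAMD2B on the same strand and, with between 3 and 10 counts in control, passed the filter only through its knockdown counts. At the other end HSPA9, just inside, stood at 0.92, and the next genes were CTNNA1 at 0.09, SIL1 at -0.17 and one of the entries for MATR3 at 0.95. That entry was uneven in control, between 58.5 and 108.4 CPM (SE 0.201), and a further MATR3 entry stood at 0.53. Over the 84 tested genes of the following 10 Mb the median was 0.31, 51 of them (60.7%) were higher and 21 (25%) lower in edgeR's fit, where 39.4% and 37.7% of all tested genes were, and the clustered protocadherin genes lie there. The rest of chromosome 5, with 547 tested genes, had a median of 0.39, and genes on other chromosomes one of 0.00.

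To see whether the families and complexes of the members moved likewise elsewhere in the genome, 117 paralogues and complex partners outside the segment were listed by function, of which 106 were tested. Of these, 45 were higher and 44 lower by edgeR (42.5% and 41.5%, where 39.4% and 37.7% of all tested genes were), and their median log2 fold change was 0.03. Of the 36 members with a tested paralogue on the list, 28 stood above every such paralogue and 3 below. The members were selected on high fold changes, so that order is a description.

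The B-type lamin LMNB2, on chromosome 19, averaged 255.7 CPM ± 13.3 in control cells and 260.5 CPM ± 7.87 in knockdown cells (SD over 4 libraries; 0.03 on the log2 scale, edgeR adjusted p 0.519), beside 1.33 for LMNB1. UBE2A, nearly a twin of UBE2B and on the X chromosome, fell from 72.4 CPM ± 2.73 to 47.7 CPM ± 3.60 (-0.60 on the log2 scale, edgeR adjusted p 4.25e-11). The alternative phosphatase 2A catalytic subunit PPP2CB also fell, by 0.25 on the log2 scale (edgeR adjusted p 7.16e-06). HSPA4L and HSPH1, the relatives of HSPA4, fell by 0.38 and 0.41 on the log2 scale (edgeR adjusted p of 3.78e-06 and 7.93e-08), and HSPA5, the Hsp70 of the endoplasmic reticulum, by 0.54 (edgeR adjusted p of 2.21e-14).

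In other families the relatives went the same way. SAR1A rose with a log2 fold change of 0.51, beside 0.59 for SAR1B, and VDAC2 with one of 0.55, beside 0.86 for VDAC1 (edgeR adjusted p of 4.99e-13 and 5.18e-14). P4HA1 fell, as P4HA2 was lower, by 0.57 on the log2 scale (edgeR adjusted p 6.23e-12). The difference between a member and its relative was not tested.

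Complex partners gave the same mixed picture. RAD50 was higher while NBN, in the same repair complex, fell by 0.43 (edgeR adjusted p 9.7e-07) and MRE11 by 0.19 (edgeR adjusted p 0.00789); the fall of MRE11 did not pass the threshold with scaling by library size only (adjusted p of 0.142) or by the upper quartile (0.0533). For SKP1, the partners RBX1 and SKP2 rose with log2 fold changes of 0.60 and 1.64 (edgeR adjusted p of 2.15e-12 and 6.77e-23), and CUL1 stood at 0.06 (edgeR adjusted p of 0.153). GSPT1, which works with ETF1 at stop codons, fell by 0.33 (edgeR adjusted p 7.84e-10). CDC16 fell by 0.57 and CDC27 rose by 0.35 on the log2 scale beside CDC23 in the anaphase-promoting complex (edgeR adjusted p of 1.53e-12 and 3.27e-07).

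**Figure D4:**
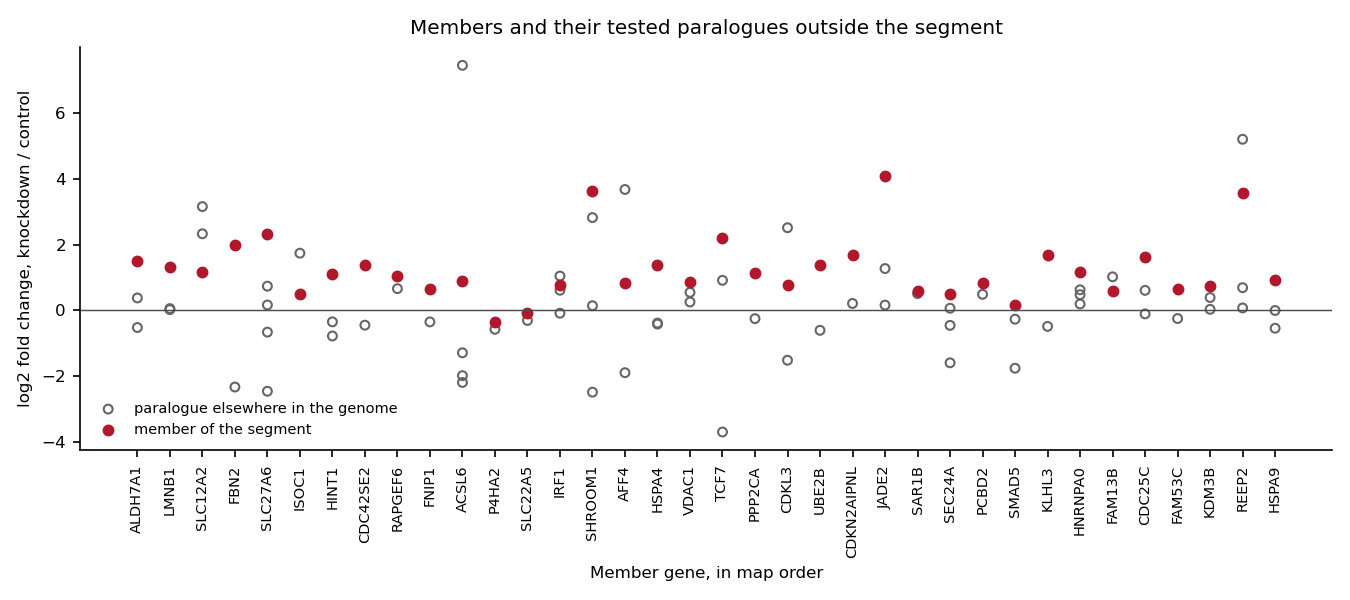
Log2 fold change (y axis) of the 36 members with a tested paralogue (red, in map order on the x axis) and of those paralogues (open circles). In 28 of the 36 columns the red point is the highest, and the open circles lie on both sides of 0.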

How the data were processed

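RNA sequencing counts were available for 8 SKBR3 libraries, 4 control and 4 FOXA1 knockdown, grouped by their titles. The authors deposited a table of raw whole-number counts for each gene, with versioned Ensembl IDs. Reads were paired, 101 bp, per the labels' protocols. FastQC, Salmon 1.9, DESeq2 3.16 and the build hg38 are named, without their roles, in the submitters' processing notes; the annotation and the use of strand are not given in the sources used here.

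Positions come from GENCODE 29 on GRCh38, matched for 29358 of 30434 identifiers (96.5%). In R 4.3.3, edgeR 4.0.16 filterByExpr (minimum 10 counts, total 15) left 16430 genes. Scaling was by TMM, and the groups were tested with the robust quasi-likelihood method with Benjamini-Hochberg adjustment over all genes (threshold 0.05). CPM uses TMM-scaled totals of tested genes. SEs come from log2 CPM with 0.5 added per count. The fit was also run on simulated counts in which few genes were changed, unlike these data, so that run does not test it under these conditions. Python 3.11.15 and matplotlib 3.10.9 made the summaries and figures.

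The members, lists and tests were chosen with earlier results of these data known. Per-library values were given for the 12 members highest in control CPM, the 6 largest and 6 smallest fitted log2 fold changes, and every member that was lower or below the filter. Other genes named are the 3 tested genes beyond each end, closest paralogues, unlisted lower genes with at least 50 counts on average, and others picked after their values were seen. Alternatives were other scalings (RLE, upper quartile, library size, TMM without chromosome 5), filters, DESeq2 1.42.0, limma 3.58.1 voom, a replicate block and leaving out each library. One listed partner gene is not reported here and was left out of the partner counts.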

Additional observations from a re-analysis of the deposited data

Results flagged for a closer look

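Dixon's test for a value far from the other 3 of its group was applied to 110 groups (53 members, their sum and FOXA1, in each condition) and it picked out 6, where chance gives about 1 in 20, or 5.5.

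In control, AFF4 was high in replicate 2 (65.1 CPM against 58.8 to 59.8 in the others). In knockdown replicate 2 it was high as well (118.5 CPM against 103.0 to 104.2), as was SLC12A2 (67.1 CPM against 61.4 to 62.1). CDKL3 was high in knockdown replicate 1 (1.45 CPM against 0.815 to 0.901), JADE2 low in knockdown replicate 3 (33.2 CPM against 35.9 to 36.0) and DDX46 low in knockdown replicate 4 (153.3 CPM against 165.6 to 166.9). No cause was tested for these. In all 6 cases the knockdown values stayed above every control value.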

How the results depend on the processing

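The median log2 fold change of the members, 1.08, was between 1.04 and 1.10 with each library left out and 1.16 with scaling by library size only; DESeq2, voom, RLE, upper-quartile scaling, both other filters and TMM without chromosome 5 moved it by less than the SD between knockdown libraries. The members higher in edgeR's fit numbered between 48 and 49 with a library left out, and 30 among members free of overlaps, an alternative chosen after seeing the data that keeps fewer genes. SLC22A5 and EGR1 changed sign in some alternatives (ranges -0.11 to 0.01 and -0.13 to 0.05). The highest median of 25 genes on chromosome 5, 1.19, was 1.27 with library size only, 1.37 with no filter, and between 1.16 and 1.35 with a library left out. The median of unlisted genes inside was 0.64 at a mean of at least 50 counts, 0.69 with no filter, and between 0.85 and 1.03 with a library left out. Before the segment the median of 0.60 became 0.69 with library size only, 0.79 with no filter and 0.99 within 5 Mb. After it, 0.31 became 0.39 with library size only, 0.37 with upper-quartile scaling, 0.47 at a mean of at least 50 counts, 0.21 with no filter, 0.25 within 5 Mb, and between 0.29 and 0.33 with a library left out. Among complex partners alone, 14 rose and 14 fell. The cause of these moves was not tested. With library size only 7157 genes were higher and 5494 lower, against 6475 and 6200.

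With the replicate number as a block, 6362 genes were higher and 6091 lower, and the call for JMJD1C, a listed paralogue of KDM3B, was lost (log2 fold change 0.40, adjusted p of 0.0974). Deviations from group means of same-numbered libraries correlated at 0.126, 0.172, -0.106 and -0.170, so pairing by number is not shown, and not every library correlated best with its own number. Members with few counts are limited by depth.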
